A study of Mus musculus with 28 samples.

Results

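Hepatic gluconeogenesis (GNG) was examined through 8 genes, which were *Pck1*, *Pck2*, *G6pc*, *Fbp1*, *Pcx*, *Slc37a4*, *Ppargc1a*, and *Foxo1*. They were taken from the 49585 features of the liver count table by gene symbol, and each symbol matched 1 Ensembl identifier. GNG makes glucose from lactate, alanine, glycerol, and other carbon sources, and keeps blood glucose up between meals. Its first reactions carry pyruvate to oxaloacetate and phosphoenolpyruvate, the middle part runs glycolysis in reverse, and the last reactions remove phosphate from fructose 1,6-bisphosphate and glucose 6-phosphate. During fasting, glucagon and glucocorticoids raise transcription of the genes for the irreversible steps, insulin lowers it, and the coactivator PGC-1α and the forkhead factor FOXO1 act on their promoters.

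The 28 livers came from C57BL/6JOlaHsd mice aged 5 to 7 months per the labels, with 7 WT and 7 SIRT6-tg animals of either sex. SIRT6-tg mice overexpress the deacylase SIRT6 and came from 1 transgenic line that had been backcrossed to this strain, and the WT mice were their littermates. The promoter of the transgene is not given in the sources used here. All mice ate standard chow and were fasted briefly before the liver was removed, so no fed group exists for comparison. The questions were how strongly each gene was expressed in the 4 groups and whether its level differed between SIRT6-tg and WT mice of each sex.

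Read counts per library summed to between 18758863 and 35393069. The normalized count used here is the count of a gene scaled by TMM, which assumes that most genes do not differ between libraries. All 8 genes passed the filter of a mean of at least 0.5 normalized counts, together with 21583 genes in all. Differences were tested by the quasi-likelihood method of edgeR, and 1 fit took in all 28 libraries. Adjusted p-values are Benjamini-Hochberg values over all 21583 genes, a gene was called when its adjusted p was under 0.05, and ± marks the SD over 7 mice. *Sirt6* itself was higher in every SIRT6-tg mouse than in every WT mouse of its sex, by 6.68 on the log2 scale in males and 3.39 in females. Scaling mattered for males, because the TMM factors were 1.06 to 1.17 in male WT and 0.821 to 0.993 in male SIRT6-tg libraries. Under TMM *Actb* itself had a log2 fold change of −0.30 between male genotypes, so scaling to it raises the male fold changes. The median log2 fold change of all genes between male genotypes was 0.06 under TMM, −0.22 with library size alone, 0.32 with every library scaled to *Actb*, and −0.31 with scaling to 15 secreted hepatocyte proteins. Changes relative to these medians are given below for the genes that were called. Subtracting the median removes most of the shift that a scaling gives to all genes alike. Close values over the scalings are therefore built into this measure, and they do not show which scaling is right. Since these are bulk liver samples, fewer cells of a type and less RNA per cell cannot be told apart.

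The bases before the transcription start of *Pck1*, *G6pc*, and *Ppargc1a* are shown because these are the genes for the regulated entry and exit steps and for the coactivator, and because their levels varied most or differed between the sexes. The sequences are the 250 bases upstream of the start given by RefSeq for GRCm38.p6, at chr2:173152823-173153072 on the plus strand, chr11:101367466-101367715 on the plus strand, and chr5:51567726-51567975 on the minus strand. Capitals mark TTACGT or its reverse complement ACGTAA, letters that form part of variants of the cAMP response element.
Pck1: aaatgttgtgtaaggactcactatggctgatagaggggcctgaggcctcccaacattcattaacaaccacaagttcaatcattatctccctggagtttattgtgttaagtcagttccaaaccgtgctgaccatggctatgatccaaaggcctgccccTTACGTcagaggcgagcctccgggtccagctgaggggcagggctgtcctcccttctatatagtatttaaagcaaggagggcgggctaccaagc
G6pc: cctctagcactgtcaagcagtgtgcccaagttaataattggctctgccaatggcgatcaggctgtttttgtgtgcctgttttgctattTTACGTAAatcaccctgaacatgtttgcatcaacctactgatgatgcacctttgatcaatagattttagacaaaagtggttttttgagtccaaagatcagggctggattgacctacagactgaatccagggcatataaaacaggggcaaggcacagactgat
Ppargc1a: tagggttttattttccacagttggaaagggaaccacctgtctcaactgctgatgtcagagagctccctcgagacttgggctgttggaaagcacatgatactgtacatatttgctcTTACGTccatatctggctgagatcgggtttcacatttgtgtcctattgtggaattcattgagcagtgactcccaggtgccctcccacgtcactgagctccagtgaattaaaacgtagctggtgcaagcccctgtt
These letters began 93 bases before the start of *Pck1* and 135 bases before that of *Ppargc1a*. In *G6pc* the 2 orientations overlapped and began 162 and 160 bases before the start. Of all 32851 windows of the same length, 2.4% held them on either strand. They were also found in 1 of the 3 windows of *Slc37a4*, in no window of the other 4 genes, and were chosen after the sequences had been read. The motif TGACG, searched on both strands, occurred in *Pck1*, *Ppargc1a*, and 2 of the 3 *Slc37a4* windows, overlapped TTACGT in *Pck1* only, and was in 17.8% of all windows. The TATAAA box, searched in the same way, lay 29 bases before the start of *G6pc*, was also in 1 *Slc37a4* window, and was present in 12.4% of all windows. The letters TGTTTTG, found in insulin response sequences, began 174 bases before the *G6pc* start and 159 before that of *Pck2*, and 5.56% of windows held them on either strand. CCAAT, also searched on both strands, was in windows of *G6pc*, *Pck2*, *Fbp1*, *Pcx*, and *Foxo1*, and in 33.8% of all windows. These matches describe the letters and were not set against binding data.

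Levels were compared between genes per kilobase of exon, as RPKM. *Fbp1* had the highest mean in all 4 groups, from 659 ± 94.6 in male WT to 943 ± 168 RPKM in male SIRT6-tg mice. *Pck1* came next, with means from 595 ± 249 in female SIRT6-tg to 783 ± 256 RPKM in female WT mice. In the order of RPKM over all genes, *Fbp1* stood at position 57 to 65 and *Pck1* at 60 to 87 of 21518 genes. *G6pc* followed with means of 87.4 to 177 RPKM, *Pcx* with 83.6 to 104, and *Slc37a4* with 60.2 to 86.1. The regulators were much lower, *Foxo1* at 4.83 to 5.60 and *Ppargc1a* at 1.63 to 3.26 RPKM. *Pck2* was the lowest at 0.415 to 0.615 RPKM, position 11425 to 12113. The order of the means was the same in every group. Neighbours were not always apart, since *Fbp1* exceeded *Pck1* in 5 of 7 male WT mice and *G6pc* exceeded *Pcx* in 3 of 7. *Pck1* exceeded *G6pc*, *Slc37a4* exceeded *Foxo1*, *Foxo1* exceeded *Ppargc1a*, and *Ppargc1a* exceeded *Pck2* in all 28 mice. The exon length used is the union over all annotated transcripts, 7806 bases for *Pck2* and 6592 for *Ppargc1a*. Which transcripts these livers used was not examined. The position of *Pck2* and its order against *Ppargc1a* depend on that length.

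**Figure D1:**
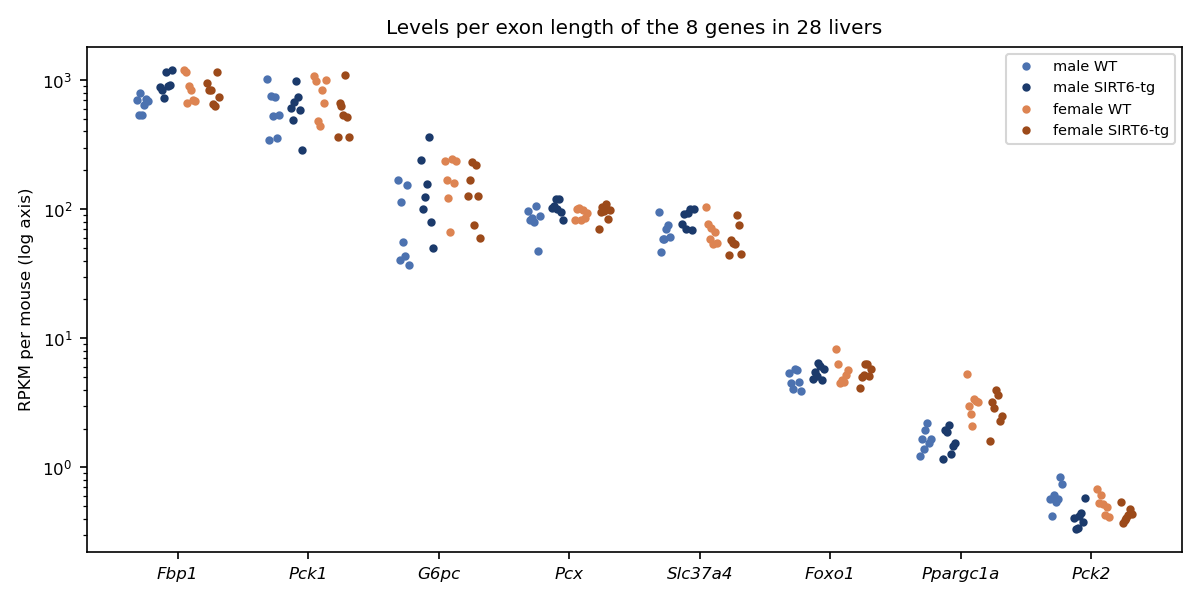
RPKM on a log axis for each of the 8 genes, with 1 point per mouse and 1 colour per group of 7. *Fbp1* and *Pck1* share the top range with means of 595 to 943 RPKM, and *Pck2* lies lowest with means of 0.415 to 0.615 RPKM.

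In males, 2 of the 8 genes were called, *Fbp1* as higher and *Pck2* as lower in SIRT6-tg mice. Of all genes tested, 20.7% were called in this comparison, 9.68% as higher and 11.0% as lower, so a count of 2 of 8 is near the background. At an unadjusted p under 0.05 the count was 4 of 8, against 32.6% of all genes. Of all genes called, the share called higher was 46.8% under TMM, 35.7% by the RLE size factors of DESeq2, 26.2% by upper quartiles, 4.89% with library size alone, 72.7% with scaling to *Actb*, and 2.49% with scaling to the secreted hepatocyte proteins. The median log2 fold change of the 8 genes was 0.25, against 0.06 over all genes. For none of the 8 did the ranges of the male genotypes separate, while 2.60% of all genes were higher without overlap and 4.37% lower. The genes are taken below in the order of the pathway.

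*Pcx* (ENSMUSG00000024892.15, plus strand of chromosome 19, 4510472 to 4621752) encodes pyruvate carboxylase, which makes oxaloacetate from pyruvate in the mitochondrion. Its normalized count ran from 6001 through a median of 10785 to 13295 in male WT mice while SIRT6-tg males had 10491, 12968, and 15184 for the lowest, median, and highest. The groups overlapped, with 3 SIRT6-tg mice above every WT mouse and 1 WT mouse, replicate 6, far below the other WT mice. A log2 fold change of 0.31 (SE 0.12, adjusted p = 0.0710) did not pass. It passed with the replicate number as a block (0.33, adjusted p = 0.0372), with 2 surrogate variables (0.34, adjusted p = 0.000525), and without male WT replicate 5 (0.38, adjusted p = 0.0324), and it was −0.04 when scaled to the secreted hepatocyte proteins. The *Lrfn4* gene lies on the opposite strand within *Pcx*, and the strand setting of the counting is not stated.

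*Pck1* (ENSMUSG00000027513.11, plus strand of chromosome 2, 173153048 to 173159273) encodes the cytosolic phosphoenolpyruvate carboxykinase, PEPCK, the regulated entry step of the pathway. In male WT mice its normalized count ran from 31363 through a median of 48614 to 92169. In male SIRT6-tg mice it ran from 26078 through 54895 to 89002. The ranges nearly coincided, and the lowest of the 14 males was a SIRT6-tg mouse. Their log2 fold change was 0.03, with a 95% interval from −0.53 to 0.59 (adjusted p = 0.961). Its sign followed the scaling, at −0.24 with library size alone and 0.23 when scaled to *Actb*, and no scaling gave a call.

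*Pck2* (ENSMUSG00000040618.6, plus strand of chromosome 14, 55540266 to 55551242) encodes the mitochondrial PEPCK, which rodent liver expresses far less than the cytosolic form. Its normalized count ran from 86.7 through a median of 119 to 176 in WT males, while SIRT6-tg males had 68.6, 84.1, and 121. The raw counts of *Pck2* over all 28 libraries were only 62 to 235. In 4 SIRT6-tg mice the count was below that of every WT mouse. *Pck2* was lower in SIRT6-tg males by a log2 fold change of −0.57 (SE 0.15, adjusted p = 0.00524), 0.672 times the WT level. The call was kept in all 14 fits that left out 1 male, with adjusted p up to 0.0161, and was lost when libraries were scaled to *Actb* (−0.30, adjusted p = 0.208).

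*Fbp1* (ENSMUSG00000069805.10, minus strand of chromosome 13, 62864753 to 62888282) encodes fructose-1,6-bisphosphatase, the enzyme that bypasses phosphofructokinase. Its normalized count ran from 24270 through a median of 31286 to 36010 in WT males, while SIRT6-tg males had 32858, 40414, and 54112. In 6 of 7 SIRT6-tg mice it was above every WT mouse. *Fbp1* was higher by a log2 fold change of 0.52 (SE 0.15, adjusted p = 0.0117), 1.43 times the WT level. It passed in all 14 fits without 1 male, with adjusted p up to 0.0496. With library size alone the log2 fold change was 0.22 (adjusted p = 0.242) and with scaling to the secreted hepatocyte proteins 0.13 (adjusted p = 0.420), neither a call. Set against the median of all genes under the same scaling, *Fbp1* stood 0.43 to 0.46 above that median on the log2 scale over 6 scalings. *Pck2* stood at −0.65 to −0.62. Ranges this narrow follow from the subtraction and were also found for uncalled genes, such as *Foxo1* (0.09 to 0.12), so they do not back the calls.

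*G6pc* (ENSMUSG00000078650.2, plus strand of chromosome 11, 101367561 to 101377903) encodes the catalytic subunit of glucose-6-phosphatase, which releases free glucose. Its normalized count ran from 2370 through a median of 3579 to 10779 in WT males, while SIRT6-tg males had 3193, 7943, and 23172. These are the widest spreads of the 8 genes, with a coefficient of variation of 64.9% and 68.2%. *G6pc* had the largest log2 fold change of the 8, 0.86, but its SE was 0.43 and its interval ran from −0.02 to 1.75 (adjusted p = 0.163). It was positive under every scaling, from 0.56 to 1.17, and in every fit without 1 male, from 0.52 (without SIRT6-tg replicate 5) to 1.08 (without WT replicate 1), and passed in none of them.

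*Slc37a4* (ENSMUSG00000032114.9, plus strand of chromosome 9, 44396852 to 44402968) encodes the transporter that brings glucose 6-phosphate into the endoplasmic reticulum, where the phosphatase acts. Its normalized count ran from 3543 through a median of 4595 to 7213 in WT males, while SIRT6-tg males had 5277, 6984, and 7579. All 7 SIRT6-tg mice exceeded the WT median, but the highest WT mouse reached 7213 and only 2 lay above it. A log2 fold change of 0.38 (SE 0.16, adjusted p = 0.105) did not pass. It passed when scaled to *Actb* (0.60, adjusted p = 0.0489) and without male WT replicate 1 (0.46, adjusted p = 0.0459).

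*Ppargc1a* (ENSMUSG00000029167.13, minus strand of chromosome 5, 51454250 to 51567726) encodes PGC-1α, a coactivator of GNG and of mitochondrial genes. Its normalized count ran from 214 through a median of 291 to 389 in WT males, while SIRT6-tg males had 204, 270.5, and 370.2. Almost the whole of both ranges overlapped. The coactivator gene had a log2 fold change of −0.03 with a 95% interval from −0.41 to 0.36 (adjusted p = 0.946), which was 0.23 when scaled to *Actb* and −0.41 when scaled to the secreted hepatocyte proteins. *Foxo1*, the gene of the insulin-restrained forkhead factor (ENSMUSG00000044167.6, plus strand of chromosome 3, 52268336 to 52353221), ran from 893 through 1048 to 1325 in WT males, while SIRT6-tg males had 1095, 1252, and 1489. This gave a log2 fold change of 0.18 (interval −0.08 to 0.44, adjusted p = 0.341), and it was negative with library size alone and with scaling to the secreted hepatocyte proteins. The gene *Gm20402* is antisense to *Foxo1* and *Gm42613* lies opposite to *Ppargc1a*, so with the strand setting unstated they may affect these counts. On the same strand lie *Gm38034* in *Foxo1*, *Gm42614*, *Gm42615*, and *Gm43605* in *Ppargc1a*, and *Mir7085* in *Slc37a4*. Those may affect the counts under any strand setting.

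**Figure D2:**
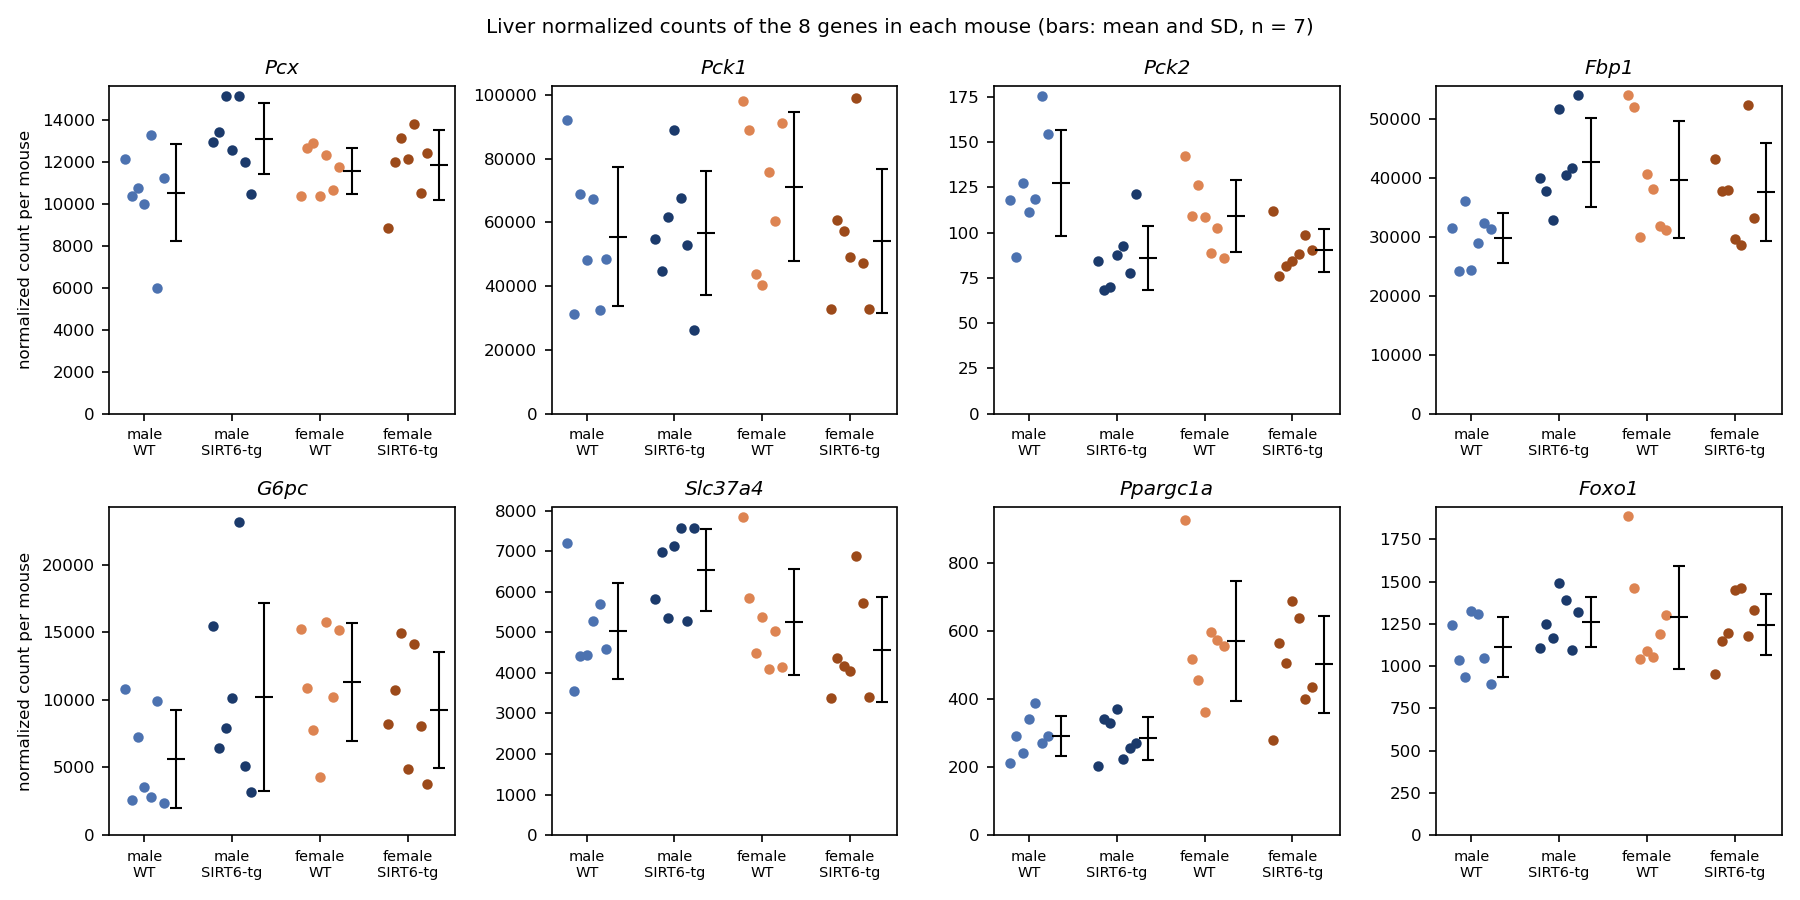
Normalized counts of the 8 genes, 1 point per mouse, in the 4 groups, with bars for the mean and SD of 7 mice. *Fbp1* is shifted up and *Pck2* down in male SIRT6-tg mice, *Ppargc1a* is lower in both male groups, and *G6pc* spreads from 2370 to 23172 in males.

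Genes of other cells in the liver moved with the male genotypes. All 8 T-cell genes, all 8 macrophage and Kupffer cell genes, all 6 stellate cell and fibroblast genes, and 3 of 4 B-cell genes were called lower in SIRT6-tg males. The T-cell genes summed to 15.4 to 45.3 CPM in male WT and 4.77 to 7.51 CPM in male SIRT6-tg libraries. In the same order, the macrophage genes summed to 445 to 1335 and 358 to 616 CPM. CPM here is a count scaled to library size multiplied by the TMM factor, not to library size alone. The 15 secreted hepatocyte proteins summed to 123920 to 163689 CPM in male WT and 151738 to 206129 CPM in male SIRT6-tg libraries, and 10 of them were called higher under TMM. Of 8 periportal genes, a list that includes *Pck1*, 5 were called higher under TMM, led by *Hal*, *Cyp2f2*, *Gls2*, and *Arg1*, and of 8 pericentral genes 1 was (*Cyp2e1*). GNG runs mainly in periportal hepatocytes. Adipocyte genes summed to at most 23.3 CPM, in 1 male WT library, and pancreatic acinar genes to at most 3.51 CPM, also in male WT, and 1 gene of each list was called lower, *Plin1* and *Ctrb1*. A single fed-state gene of 7 (*Srebf1*) and 2 fasting genes of 7, among them *Angptl4*, were called higher, 1 endothelial gene of 5 (*Pecam1*) was called lower, and no clock gene of 10 and no cholangiocyte gene of 4 was called. In females no gene of these lists was called, and the lowest unadjusted p-values belonged to *Lgr5* of the pericentral list (log2 fold change 0.52, unadjusted p = 0.00202) and *Cd8a* of the T-cell list (−0.92, unadjusted p = 0.00409). The part of any of these in the values of the 8 genes was not tested.

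**Figure D3:**
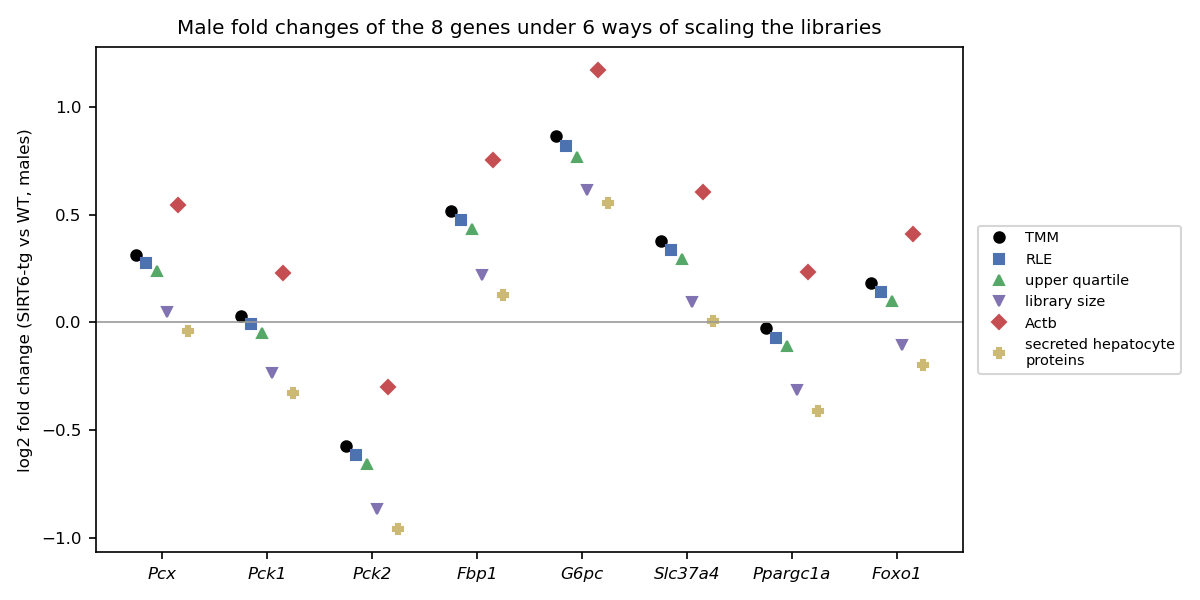
Male log2 fold changes (SIRT6-tg against WT) of the 8 genes under 6 ways of scaling the libraries. The points of each gene shift by nearly the same amount, so *G6pc* stays between 0.56 and 1.17 and *Pck2* between −0.96 and −0.30, while *Pck1*, *Pcx*, *Ppargc1a*, and *Foxo1* have points on both sides of 0.

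In females none of the 8 genes was called, against 0.0278% of all genes (6 genes by edgeR, 44 by DESeq2), 0.0232% higher and 0.00463% lower in SIRT6-tg mice. None of the 8 had an unadjusted p under 0.05 either, while 5.62% of all genes (1212) did. Of the 8 log2 fold changes, 7 were negative and the median was −0.19, against 0.00257 for all genes. The ranges of female WT and SIRT6-tg mice overlapped for all 8, as for nearly all genes, since 0.0417% separated in each direction.

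*Pck1* ran from 40399 through a median of 75742 to 98070 normalized counts in WT females, while SIRT6-tg females had 32720, 49262, and 99206. Although 6 of the 7 SIRT6-tg mice lay at or below 60803, the seventh was the highest of all 28 mice. *Pck1* had a log2 fold change of −0.40, with an interval from −0.96 to 0.16 (unadjusted p = 0.159), and −0.61 without that mouse, SIRT6-tg replicate 5 (adjusted p = 0.812). *Pck2* had the lowest unadjusted p of the 8 (0.0684), with a log2 fold change of −0.28 and an interval from −0.58 to 0.02. Its counts ran from 86.1 to 142 in WT females and from 76.3 to 112 in SIRT6-tg females.

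*G6pc* ran from 4277 through a median of 10861 to 15742 in WT females, while SIRT6-tg females had 3800, 8181, and 14949. The log2 fold change of *G6pc* was −0.29 (interval −1.17 to 0.58). *Fbp1* had medians of 38162 and 37774 and a log2 fold change of −0.08 (interval −0.38 to 0.22). *Pcx*, with medians of 11782 and 12165, had 0.03 (interval −0.22 to 0.28), and *Slc37a4*, with medians of 5040 and 4172, had −0.20 (interval −0.54 to 0.13). *Ppargc1a* ran from 364 through 558 to 929 in WT females and from 281 through 508 to 691 in SIRT6-tg females, with a log2 fold change of −0.18 (interval −0.56 to 0.20). *Foxo1* had medians of 1189 and 1195 and −0.05 (interval −0.31 to 0.21). No alternative fit and no fit without 1 female called any of the 8.

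Whether the genotype effect differed between males and females was tested as an interaction. The log2 rise of *Sirt6* itself was larger in males by 3.29, so sex and the level of overexpression cannot be told apart here. None of the 8 genes was called, against 5.05% of all genes, 1.20% more positive and 3.84% more negative in males. The unadjusted p was under 0.05 for 2 of the 8, *Fbp1* and *Slc37a4*, and for 18.8% of all genes. The male effect exceeded the female one by 0.60 for *Fbp1* (SE 0.21, unadjusted p = 0.00763, adjusted p = 0.0969), by 0.58 for *Slc37a4* (SE 0.23, unadjusted p = 0.0181, adjusted p = 0.156), and by 1.16 for *G6pc* (SE 0.60, unadjusted p = 0.0668, adjusted p = 0.309). *Fbp1* passed without female SIRT6-tg replicate 6 (0.69, adjusted p = 0.0329) and with 2 surrogate variables (0.41, adjusted p = 0.00742). *Pck2* had −0.29 (adjusted p = 0.483) and passed only with scaling to the secreted hepatocyte proteins (−0.78, adjusted p = 0.00876). That *Fbp1* and *Pck2* were called in males and not in females is therefore not shown to be a difference between the sexes.

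The clearest difference among the 8 genes was between the sexes, in *Ppargc1a*. Male WT mice had 0.509 times the level of female WT mice, a log2 fold change of −0.97 (SE 0.19, adjusted p = 0.000549), and 6 of 7 male WT mice lay below every female WT mouse. Among SIRT6-tg mice the value was −0.82 (SE 0.19, adjusted p = 0.00195), and 4 of 7 males lay below every female. Both differences passed under each of the 10 alternative fits and without any 1 mouse. The log2 fold change ranged from −1.50 to −0.62 between WT mice, the ends being scaling to *Actb* and to the secreted hepatocyte proteins.

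*Ppargc1a* was the only one of the 8 called between WT mice, where 12.4% of all genes were, 6.65% higher and 5.71% lower in males. At an unadjusted p under 0.05 there were 3 of the 8, against 25.1% of all genes. The share called higher, of all genes called, was 53.8% under TMM and 86.8% with library size alone, 5.02% with scaling to *Actb*, and 94.4% with scaling to the secreted hepatocyte proteins. No member separated the sexes without overlap, as 1.33% of all genes did upward in males and 1.64% downward. *Fbp1* had 0.751 times the female level (log2 fold change −0.41, adjusted p = 0.0639) and passed without female WT replicate 3, 6, or 7, with scaling to *Actb* (−0.91), and with 2 surrogate variables (−0.43). *G6pc* had 0.494 times the female level (−1.02, SE 0.43, adjusted p = 0.131), and 4 of 7 male WT mice lay below every female WT mouse. It passed with scaling to *Actb* (−1.59, adjusted p = 0.0165), and *Actb* itself was higher in male than in female WT mice by 0.54 (adjusted p = 0.0119). *Pck1* (−0.36), *Pcx* (−0.14), *Slc37a4* (−0.07), *Foxo1* (−0.21), and *Pck2* (0.22) were not called. Of these, *Pcx*, *Slc37a4*, *Foxo1*, and *Pck2* changed sign under at least 1 other scaling, *Pcx* and *Foxo1* passed with scaling to *Actb*, and *Pck2* passed as higher in males with library size alone (0.42, adjusted p = 0.0321) and with scaling to the secreted hepatocyte proteins (0.56, adjusted p = 0.00301). Set against the median of all genes, *Ppargc1a* stood at −0.98 to −0.94 over the 6 scalings, a range kept narrow by the subtraction. All 8 T-cell genes were called higher in WT males, with a median log2 fold change of 1.28, and the secreted hepatocyte proteins summed to 185326 to 235644 CPM in WT females, above every male WT library. Their part in these values was not tested.

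Between SIRT6-tg males and females 2 of the 8 were called, *Ppargc1a* as lower and *Slc37a4* as higher in males, against 23.1% of all genes, 12.9% higher and 10.2% lower. At an unadjusted p under 0.05 it was the same count, against 35.4% of all genes. The share called higher, of all genes called, was 55.9% under TMM, 39.2% by upper quartiles, 7.97% with scaling to *Actb*, and 36.6% with scaling to the secreted hepatocyte proteins, and library size alone gave a value between the last and the upper-quartile one. No member separated, as 3.58% of all genes did upward and 2.56% downward. *Slc37a4* ran from 5277 to 7579 in SIRT6-tg males and from 3374 to 6892 in SIRT6-tg females, and 4 males lay above every female. That difference was 0.51 on the log2 scale (SE 0.16, adjusted p = 0.0229). It was not called without female SIRT6-tg replicate 7 (adjusted p = 0.0546), nor under 5 of the 10 alternatives, among them upper-quartile scaling (0.44, adjusted p = 0.0506) and scaling to *Actb* (0.11, adjusted p = 0.754). Set against the median of all genes, *Slc37a4* stood at 0.53 to 0.56 and *Ppargc1a* at −0.81 to −0.78 over the 6 scalings, again narrow by the subtraction. The other 6 genes had log2 fold changes between −0.07 and 0.18 and were not called. Of these, *Pck2* passed as lower in males with scaling to *Actb* (−0.48, adjusted p = 0.0452) and *Pcx* as higher with 2 surrogate variables (0.20, adjusted p = 0.0496). Every SIRT6-tg male had more *Sirt6* than every SIRT6-tg female, so sex and the level of *Sirt6* cannot be told apart in this comparison.

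**Figure D4:**
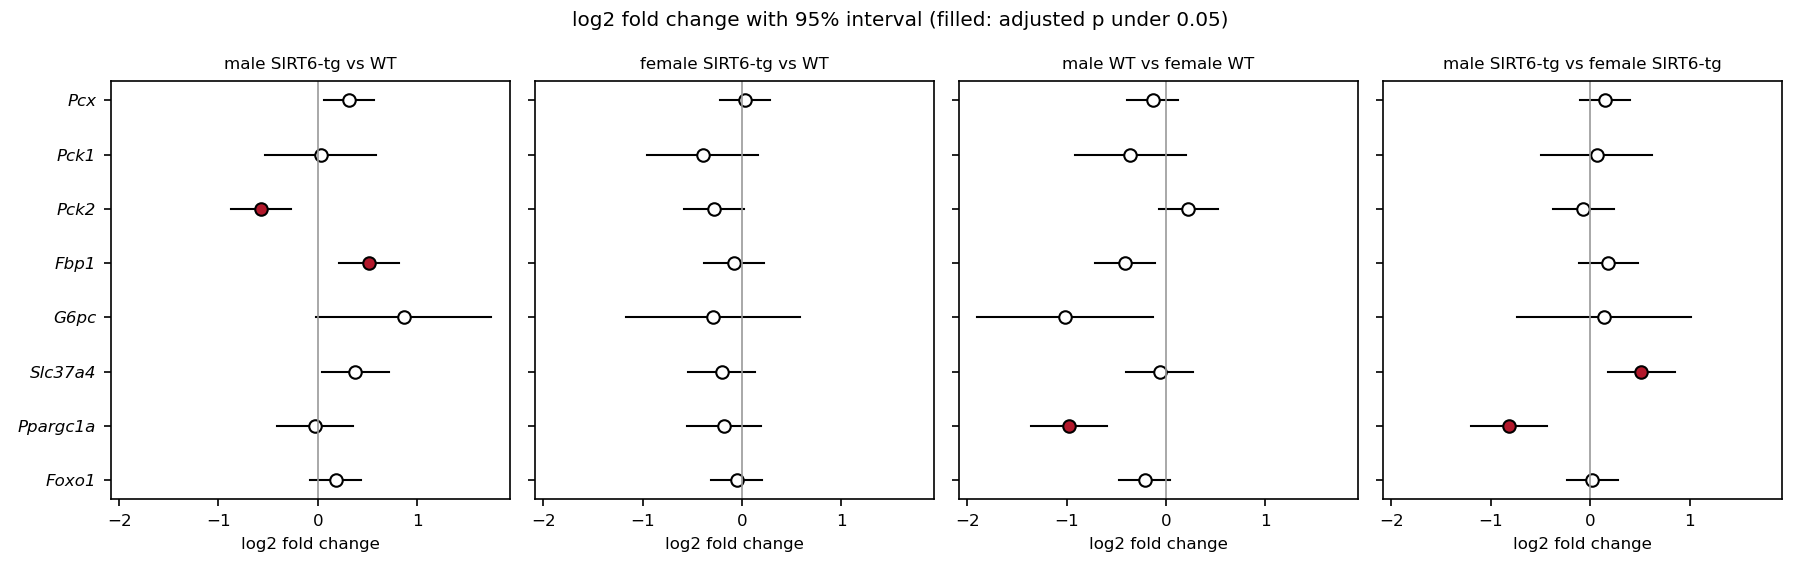
Log2 fold changes of the 8 genes with 95% intervals in 4 comparisons, from 1 fit of 28 libraries, with filled points where the adjusted p was under 0.05. *Fbp1* (0.52) and *Pck2* (−0.57) are filled in males, no gene is in females, and *Ppargc1a* is filled in both comparisons of the sexes (−0.97 and −0.82).

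Mice of 1 group differed from each other in *G6pc* and *Pck1* more than in the other genes. The coefficient of variation was 38.3% to 68.2% for *G6pc* and 32.8% to 41.8% for *Pck1*, and 9.49% to 21.8% for *Pcx*. To describe which genes varied together, group means were subtracted from log2 CPM and the 28 remainders were correlated. The points of each pair share their library and its depth. *Pck1* and *G6pc* had Pearson's r = 0.61 and Spearman's rho = 0.60, and r = 0.53 without the 2 mice farthest from the median of *Pck1*. Within the groups of 7 that r was 0.30 in male WT, 0.71 in male SIRT6-tg, 0.88 in female WT, and 0.71 in female SIRT6-tg mice. Both genes also varied with *Igfbp1*, an insulin-repressed gene of the fasting list that is named outside the rule for named genes (r = 0.61 for *Pck1* and 0.63 for *G6pc*). *Pck1* and *Pcx* had r = 0.56. *Ppargc1a* varied with *Foxo1* (r = 0.64, rho = 0.54, and 0.45 without the 2 farthest mice) and hardly with *G6pc* (r = −0.05), where the values within groups ran from −0.74 in male WT to 0.81 in female WT mice. *Sirt6* had r = 0.05 with *Pck1*, 0.04 with *G6pc*, and 0.44 with *Fbp1*, the last being 0.16 without the 2 farthest mice.

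Of the 10054 genes whose mean normalized count was 100 or more, those most like *Pck1* across the 28 mice were *Slc25a51* (r = 0.86), which encodes a mitochondrial NAD carrier, *Pim3* (0.83), a kinase gene, and *Tat* (0.83), the glucocorticoid-induced tyrosine aminotransferase. Those most like *G6pc* were *Slc25a25* (0.88), a mitochondrial ATP-magnesium carrier gene, *Tob1* (0.79), and *Angptl4* (0.77), a fasting-induced inhibitor of lipoprotein lipase. Those most like *Ppargc1a* were *Abcb1a* (0.74), *Slc7a2* (0.67), a transporter of cationic amino acids, and *Mapre2* (0.66), which by Spearman's rho stood at position 11.

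The other genes of the pathway were taken from 8 lists of 91 genes, of which 90 were tested and *G6pc2*, with 12 counts in all libraries together, was not. In males 27 were called higher and 1 lower in SIRT6-tg mice, where 9.68% of all genes were called higher and 11.0% lower. These shares of all genes are the background for each list below, and in the lists of regulators and of hormone receptors the count called higher is near it or below. The median log2 fold change of the 90 was 0.23, against 0.06 over all genes. The counts higher and lower were 18 and 2 under RLE, 12 and 2 under upper-quartile scaling, 0 and 4 with library size alone, 33 and 1 with scaling to *Actb*, and 0 and 6 with scaling to the secreted hepatocyte proteins. Without male WT replicate 4 the total fell from 28 to 16, and it was 17 without male WT replicate 2 or male SIRT6-tg replicate 4. In females none of the 90 was called, 3 had an unadjusted p under 0.05 and a positive log2 fold change, 1 had a negative one, and the median was 0.01.

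Of 20 genes for precursor entry and shuttles, 10 were called higher in SIRT6-tg males and none lower, with a median of 0.33. They included *Gpd1* (log2 fold change 0.61, adjusted p = 0.00497), which takes glycerol carbon to dihydroxyacetone phosphate, and *Slc25a10* (0.53, adjusted p = 0.00385), the dicarboxylate carrier. *Mdh1* (0.46, adjusted p = 0.0251), the cytosolic malate dehydrogenase, and *Gpt* (0.44, adjusted p = 0.00807), which makes pyruvate from alanine, were also among them. Under TMM *Gpd1* was higher in all 7 SIRT6-tg males (6681 normalized counts or more) than in any WT male (6478 or less). Of all genes, 2.60% separated in this way, and whether *Gpd1* does so under other scalings was not examined. In females *Gk*, the glycerol kinase gene, had the lowest unadjusted p of this list (log2 fold change 0.36, unadjusted p = 0.00926, adjusted p = 0.582).

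Of the 7 reversible enzymes shared with glycolysis 5 were called higher in males, among them *Gapdh* (0.44, adjusted p = 0.00800), *Pgk1* (0.43, adjusted p = 0.0205), and *Tpi1* (0.39, adjusted p = 0.0119). These enzymes work in both directions. Of the 5 genes of the opposing, glycolytic direction 2 were called higher, *Pfkl* (0.34, adjusted p = 0.0159), the liver phosphofructokinase, and *Gckr* (0.23, adjusted p = 0.0412), which restrains glucokinase. In females *Gpi1* (−0.23, unadjusted p = 0.0572) and *Pfkl* (−0.15, unadjusted p = 0.165) had the lowest p of these 2 lists.

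Among 9 tested isoenzymes and paralogs of the 8 genes, *Ppargc1b*, the gene of the related coactivator PGC-1β, was called higher in males (0.39, adjusted p = 0.0467) and *Slc37a2* lower (−1.02, adjusted p = 7.65e-05). *Slc37a2* is a paralog of *Slc37a4* known from macrophages, and it ran from 68.0 to 153 normalized counts in WT males and 43.3 to 76.7 in SIRT6-tg males, alongside the macrophage genes given above. In females *Slc37a1* had the lowest p of this list (−0.75, unadjusted p = 0.0854). Of 14 activating regulators, *Cebpa* (0.47, adjusted p = 0.000134) and *Creb3l3* (0.42, adjusted p = 0.00989) were called higher in males. *Cebpa*, a hepatocyte transcription factor gene, ran from 12162 to 15281 in WT males and from 17625 to 20070 in SIRT6-tg males under TMM. The ranges did not overlap, as for 2.60% of all genes in this direction. *Nr4a1* had the lowest p of that list in females (−1.53, unadjusted p = 0.0752).

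None of 10 restraining regulators was called in males or in females, where *Sik1* had −0.83 (unadjusted p = 0.0656). Of 12 hormone receptor and insulin signalling genes 1 was called in males, *Gcgr*, the glucagon receptor gene (0.48, adjusted p = 0.00207), with 5206 to 7862 normalized counts in WT and 7165 to 10234 in SIRT6-tg mice. In females *Pik3r1* had 0.31 (unadjusted p = 0.0823). Of 13 genes for partners of PGC-1α and mitochondrial biogenesis 6 were called higher in males, among them *Cox5b* (0.53, adjusted p = 0.0177), *Tfb2m* (0.45, adjusted p = 0.00867), *Tfb1m* (0.37, adjusted p = 0.0234), and *Tfam* (0.36, adjusted p = 0.0338). *Tfb2m* and *Tfam* encode transcription factors of mitochondrial DNA. *Ppargc1a* itself had −0.03. In females *Esrrg* had 0.88 (unadjusted p = 0.00332, adjusted p = 0.431).

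The interaction test called 4 of these 90 genes, no larger a share than the 5.05% of all genes. They were *Pfkl* (0.49, adjusted p = 0.0439), *Cebpa* (0.47, adjusted p = 0.0180), and *Atp5b* (0.38, adjusted p = 0.0348) as more positive in males and *Slc37a2* as more negative (−0.87, adjusted p = 0.0339). These 4 are named after their values were seen, and the count was 0 without male WT replicate 4 and 8 without female SIRT6-tg replicate 6. Between WT mice, 13 of the 90 were called lower in males and none higher, against 5.71% and 6.65% of all genes, but the split was 4 lower and 11 higher with library size alone and 1 lower and 21 higher with scaling to the secreted hepatocyte proteins. Without male WT replicate 7 it was 5 genes in all, and without female WT replicate 5, 6, or 7 it was 6, 8, or 7. Between SIRT6-tg mice, 22 were called higher in males and 6 lower, against 12.9% and 10.2% of all genes, and with scaling to *Actb* 2 were higher and 20 lower. Without female SIRT6-tg replicate 4 or 7 the total of 28 became 18. The comparisons within males and between males share the same male mice, so their counts are not independent.

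**Figure D5:**
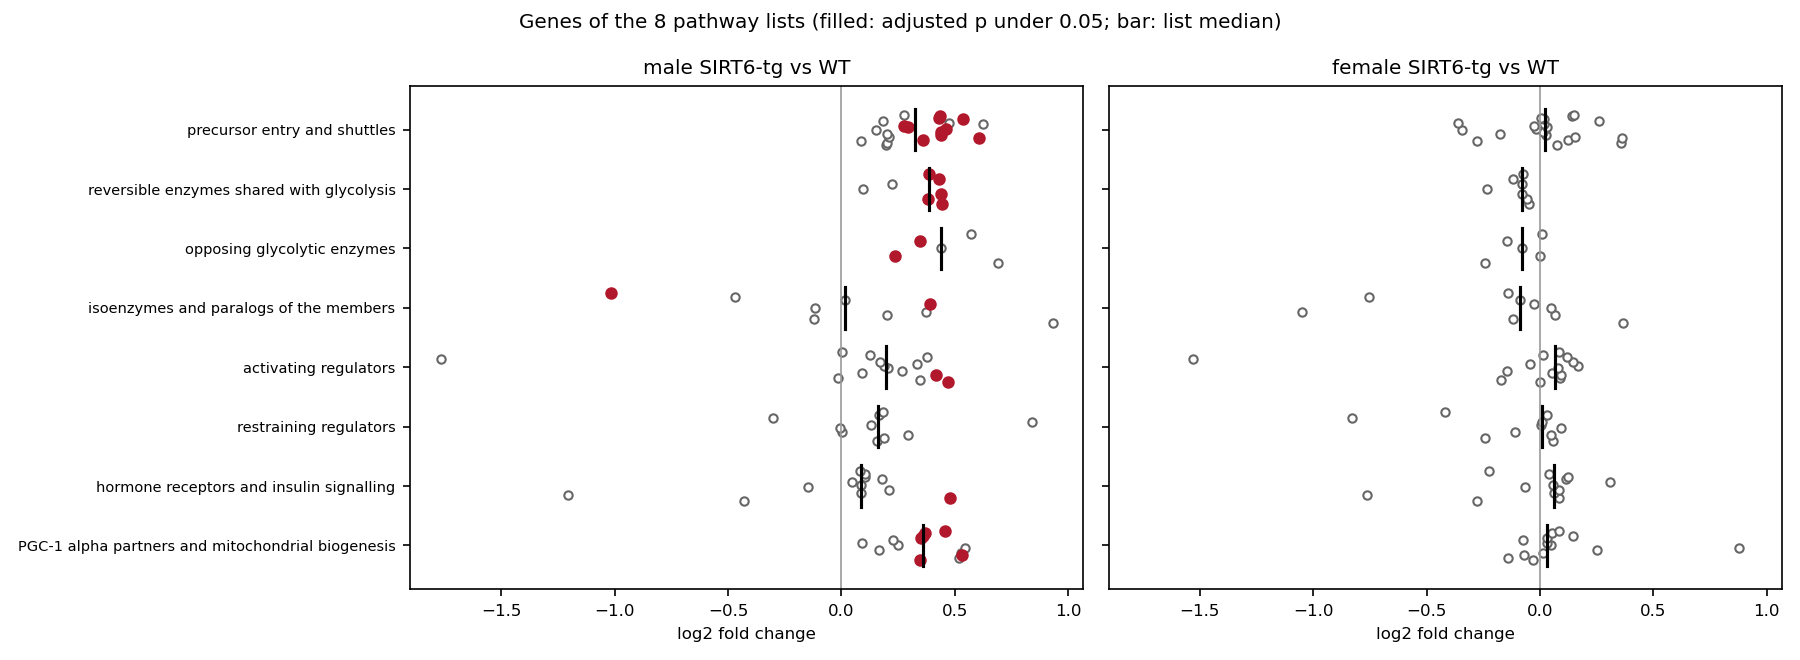
Log2 fold changes (SIRT6-tg against WT) of the genes of the 8 pathway lists in males and females, 1 point per gene, filled where the adjusted p was under 0.05, with a bar at each list's median. In males 27 filled points lie above 0 and 1 (*Slc37a2*, −1.02) below, and in females no point is filled.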

How the data were processed

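Liver RNA of 28 mice was sequenced as single-end NEBNext Ultra libraries. The authors used STAR 2.5.0a for alignment to mm10 and HTSeq for counting per Gencode gene, and they deposited raw counts, 1 column per mouse, all of which were mapped. The strand setting is not given in the sources used here.

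The 21583 genes averaging 0.5 or more normalized counts were fitted with edgeR 4.0.16 in R 4.3.3, using TMM scaling, robust quasi-likelihood dispersions, and the 4 groups without covariates. All 5 comparisons were drawn from that fit, and the SE was derived from the F statistic. RPKM used the union exon length of Gencode genes on GRCm38. Alternatives were other scalings, other filters, DESeq2 1.42.0, each sex alone, replicate number as a block, 2 surrogate variables (sva 3.50.0), and leaving out each library. The fit was tested on simulated data. Correlations of same-numbered mice showed no pairing by replicate number, and the mice were treated as unpaired.

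The 8 genes and all lists were chosen with earlier results of these data known. Named genes were the 8, *Sirt6*, *Actb*, up to 4 called genes of a list with the largest change in males, the gene of lowest p in females, and the 3 genes most correlated with *Pck1*, *G6pc*, and *Ppargc1a*. *Igfbp1* and *Atp5b* are named outside this rule. Not every gene that the rule allows from the cell marker lists is given with values. Some genes that the rule names are not reported here.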

Additional observations from a re-analysis of the deposited data

Results flagged for a closer look

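In 32 groups of 7 mice (8 genes in 4 groups), Dixon's test singled out 2 values, and chance gives about 1 in 20. *Pck1* was highest in female SIRT6-tg replicate 5, at 99206 normalized counts, and the next mouse had 60803, a gap of 0.578 of the range. *Ppargc1a* was highest in female WT replicate 1, at 929 normalized counts, and the next mouse had 597, a gap of 0.588 of the range. Without that mouse the WT males still differed from WT females in *Ppargc1a*, by a log2 fold change of −0.81 (adjusted p = 0.00247 by edgeR). The genotype effect on *Sirt6* itself differed between the sexes, the male minus the female log2 fold change being 3.29 (edgeR interaction, SE 0.35), with 6.68 in males and 3.39 in females.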

How the results depend on the processing

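Log2 fold changes that changed sign all belonged to uncalled values, and none was called in its new direction, with adjusted p of 0.154 or more. Under RLE these were *Pck1* −0.0090 between male genotypes, *Foxo1* −0.0045 between SIRT6-tg sexes. Under upper-quartile scaling these were *Pck1* −0.049 between male genotypes, *Pck1* −0.0094 and *Foxo1* −0.057 between SIRT6-tg sexes. With library size alone these were *Pck1* −0.24 and *Foxo1* −0.10 between male genotypes, *Ppargc1a* −0.17 and *Foxo1* −0.077 in the interaction, *Pcx* 0.049 and *Slc37a4* 0.13 between WT sexes, *Pck1* −0.034 and *Foxo1* −0.094 between SIRT6-tg sexes. With scaling to *Actb* these were *Ppargc1a* 0.23 between male genotypes, *Fbp1* 0.062 and *Foxo1* 0.11 between female genotypes, *Pck2* −0.31 between WT sexes, *Pck1* −0.32, *G6pc* −0.19, *Fbp1* −0.22, *Pcx* −0.25, and *Foxo1* −0.40 between SIRT6-tg sexes. With scaling to the secreted hepatocyte proteins these were *Pck1* −0.33, *Pcx* −0.041, and *Foxo1* −0.20 between male genotypes, *Fbp1* 0.022 and *Foxo1* 0.074 between female genotypes, *Pck1* −0.048, *Pcx* −0.17, *Ppargc1a* −0.37, and *Foxo1* −0.27 in the interaction, *Pcx* 0.18, *Slc37a4* 0.28, and *Foxo1* 0.13 between WT sexes, *Pck1* −0.073 and *Foxo1* −0.14 between SIRT6-tg sexes. With 2 surrogate variables these were *Fbp1* 0.040 and *Foxo1* 0.063 between female genotypes, *Pck1* −0.054, *G6pc* −0.17, *Fbp1* −0.021, and *Foxo1* −0.081 between SIRT6-tg sexes. By DESeq2 these were *Pck1* −0.0090 between male genotypes, *Foxo1* −0.0046 between SIRT6-tg sexes. Leaving out 1 library gave *Pck1* −0.12 to 0.18 between male genotypes, *Ppargc1a* −0.11 to 0.054 between male genotypes, *Fbp1* −0.18 to 0.0037 between female genotypes, *Pcx* −0.0097 to 0.089 between female genotypes, *Foxo1* −0.097 to 0.060 between female genotypes, *Ppargc1a* −0.014 to 0.25 in the interaction, *Slc37a4* −0.15 to 0.067 between WT sexes, *Pck1* −0.074 to 0.28 between SIRT6-tg sexes, *G6pc* −0.20 to 0.30 between SIRT6-tg sexes, *Foxo1* −0.037 to 0.061 between SIRT6-tg sexes.

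Called among the 8 were 2 genes between male genotypes, and 1 with library size alone or scaling to the secreted hepatocyte proteins. *Pcx* was called in addition with the replicate block or 2 surrogate variables. With scaling to *Actb* the count stayed at 2, with *Slc37a4* called in place of *Pck2*. The interaction called 0, and 1 with scaling to the secreted hepatocyte proteins or 2 surrogate variables. Between WT sexes it was 1, and 2 with library size alone, scaling to the secreted hepatocyte proteins, or 2 surrogate variables, and 5 with scaling to *Actb*. Between SIRT6-tg sexes it was 2, and 1 under upper-quartile scaling, library size alone, or scaling to the secreted hepatocyte proteins. There *Slc37a4* gave way to *Pck2* with scaling to *Actb* and to *Pcx* with 2 surrogate variables. Of the 90 pathway genes, 28 were called between male genotypes, and 14 under upper-quartile scaling, 4 with library size alone, 6 with scaling to the secreted hepatocyte proteins, and 46 with 2 surrogate variables. The interaction called 4, and 2 under RLE, without the filter, or with the replicate block, 1 under upper-quartile scaling or library size alone, 0 with scaling to *Actb*, and 18 with 2 surrogate variables. Between WT sexes it was 13, and 54 with scaling to *Actb*, 22 with scaling to the secreted hepatocyte proteins, 8 without the filter, and 28 with 2 surrogate variables. The causes were not tested.

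Leaving out 1 library gave 2 to 3 of the 8 between male genotypes, 0 to 0 between female genotypes, 0 to 1 in the interaction, and 1 to 2 in both comparisons of the sexes. For the pathway genes it gave 16 to 28, 0 to 0, 0 to 8, 5 to 13 between WT sexes, and 18 to 31 between SIRT6-tg sexes. Same-numbered mice correlated at −0.283 to 0.271, and 1 to 3 of 7 pairs of a comparison exceeded 0.1. No pairing by number was seen, but such correlations cannot exclude it. The replicate block called 3 of the 8 and 27 pathway genes between male genotypes, 0 and 0 between female genotypes, 0 and 2 in the interaction, 1 and 9 between WT sexes, and 2 and 29 between SIRT6-tg sexes. The raw counts of *Pck2* were low, 62 to 235, yet its SE between male genotypes was 0.15, as for *Fbp1*, while *G6pc*, with far higher counts, had an SE of 0.43.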
